A study of Arabidopsis thaliana with 4 samples.

Results

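The aquaporin family of Arabidopsis thaliana was examined in the stem base of mol1-1 and wild-type (WT) plants. The 35 members were taken by locus from a fixed list, by family membership and not by their values, though earlier results of these data were known, out of 33316 named loci in the deposited tables. They comprise 13 plasma membrane intrinsic proteins (PIPs), 10 tonoplast intrinsic proteins (TIPs), 9 nodulin 26-like intrinsic proteins (NIPs) and 3 small basic intrinsic proteins (SIPs). The study set 2 mol1-1 libraries against 2 WT libraries, both genotypes in the Col-0 ecotype. MOL1 encodes a receptor-like kinase known as a repressor of cambium activity, and mol1-1 is 1 allele, so the comparison rests on a single mutant line. Plants were kept on soil under 8 h of light a day for 3 weeks at 21 °C and then under 16 h of light to induce flowering. When they stood 15 to 20 cm tall, 1 cm of stem was taken just above the top rosette leaf, and polyadenylated RNA was sequenced.

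Aquaporins are membrane channels that let water, and in some members small uncharged solutes, cross a membrane along its gradient. PIPs sit mainly in the plasma membrane, TIPs mainly in the tonoplast, the membrane of the vacuole, and SIPs in the endoplasmic reticulum. NIPs are known as channels for solutes such as boric acid, glycerol and arsenite more than for water. In stems, PIPs and TIPs are known for water exchange around the vascular bundles and for the vacuolar water uptake of growing cells.

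The channel pore of most aquaporins is lined by a pair of short loops, each with an asparagine, proline, alanine (NPA) box. The first such box of the leading member of each subfamily is shown to let this feature be compared across otherwise dissimilar genes. Genes are called by their letter names in RefSeq where these exist, and the systematic name is given once with the locus. The leading members are PIP1;5 (PIP1D), PIP2;1 (PIP2A), TIP1;2 (GAMMA-TIP2), NIP6;1 and SIP1;1 (SIP1A). Each line gives 45 coding bases from RefSeq (TAIR10.1), 5′ to 3′ on the coding strand, with the 9 bases of the box in capitals.
PIP1D: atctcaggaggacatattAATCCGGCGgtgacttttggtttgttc
PIP2A: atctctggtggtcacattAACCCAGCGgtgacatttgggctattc
GAMMA-TIP2: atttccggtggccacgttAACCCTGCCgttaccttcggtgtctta
NIP6;1: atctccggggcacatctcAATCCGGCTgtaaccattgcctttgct
SIP1A: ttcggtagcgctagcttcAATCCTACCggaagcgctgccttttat
The third triplet of the box was GCG, GCC or GCT, all for alanine, in the PIP, TIP and NIP genes. It was ACC, for threonine, in the SIP gene, whose box thus departs from NPA. These 5 genes lie on the chromosomes of TAIR10.1 at chr4:12220641-12222468 (PIP1D), chr3:19803473-19805730 (PIP2A), chr3:9722443-9723904 (GAMMA-TIP2), chr1:30350539-30352208 (NIP6;1) and chr3:1071984-1074244 (SIP1A). PIP1D is on the plus strand, and the other 4 are on the minus strand.

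The 4 libraries held between 28017346 and 37059413 exon reads, of which 96.9% to 97.1% were unique. MOL1 itself, the gene that carries the mutation, stood at 2.96 and 2.96 RPKM (reads per kilobase of exon, scaled to library size) in the mol1-1 libraries and at 9.75 and 9.43 RPKM in the WT libraries. Its log2 fold change of mol1-1 over WT was -1.66 (SE 0.12, edgeR quasi-likelihood test, adjusted p = 0.0217), which fits the labels. Of 19024 genes tested, 36 were higher and 2 lower in mol1-1. Markers of stem tissues were present at high levels, with 4 phloem genes summing to 444 and 380.1 RPKM in mol1-1 and 406 and 463 RPKM in WT. The 4 epidermis genes summed to 151 and 96.8 RPKM in mol1-1 and to 184 and 182 RPKM in WT. The floral, pollen, seed and root lists each summed to at most 5.12 RPKM in any library, and CRU3 of seeds and COBL9 and RHD6 of roots had no read. Nothing in the labels says whether the libraries of a genotype came from separate plants, so the p-values measure only the spread between these libraries. In bulk tissue, fewer cells of a type and less RNA per cell cannot be told apart.

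Aquaporin transcripts made up 0.519% and 0.651% of all exon reads in the mol1-1 libraries and 0.482% and 0.534% in the WT libraries. Their deposited RPKM summed to 4008 and 4995 in mol1-1 and to 3687 and 4106 in WT. The lowest mol1-1 sum lay below the highest WT sum, so the groups overlapped. Of the 35 genes, 11 averaged 100 RPKM or more over the 4 libraries, 9 lay between 10 and 100 RPKM, 4 between 1 and 10 RPKM, and 11 under 1 RPKM. The family was therefore carried by a minority of its genes. PIP1D and PIP2A together gave 42.7% and 33.8% of the summed aquaporin RPKM in mol1-1 and 33.9% and 40.8% in WT. The leading 10 genes gave 90.1% and 89.1% in mol1-1 and 87.7% and 89.4% in WT.

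**Figure D1:**
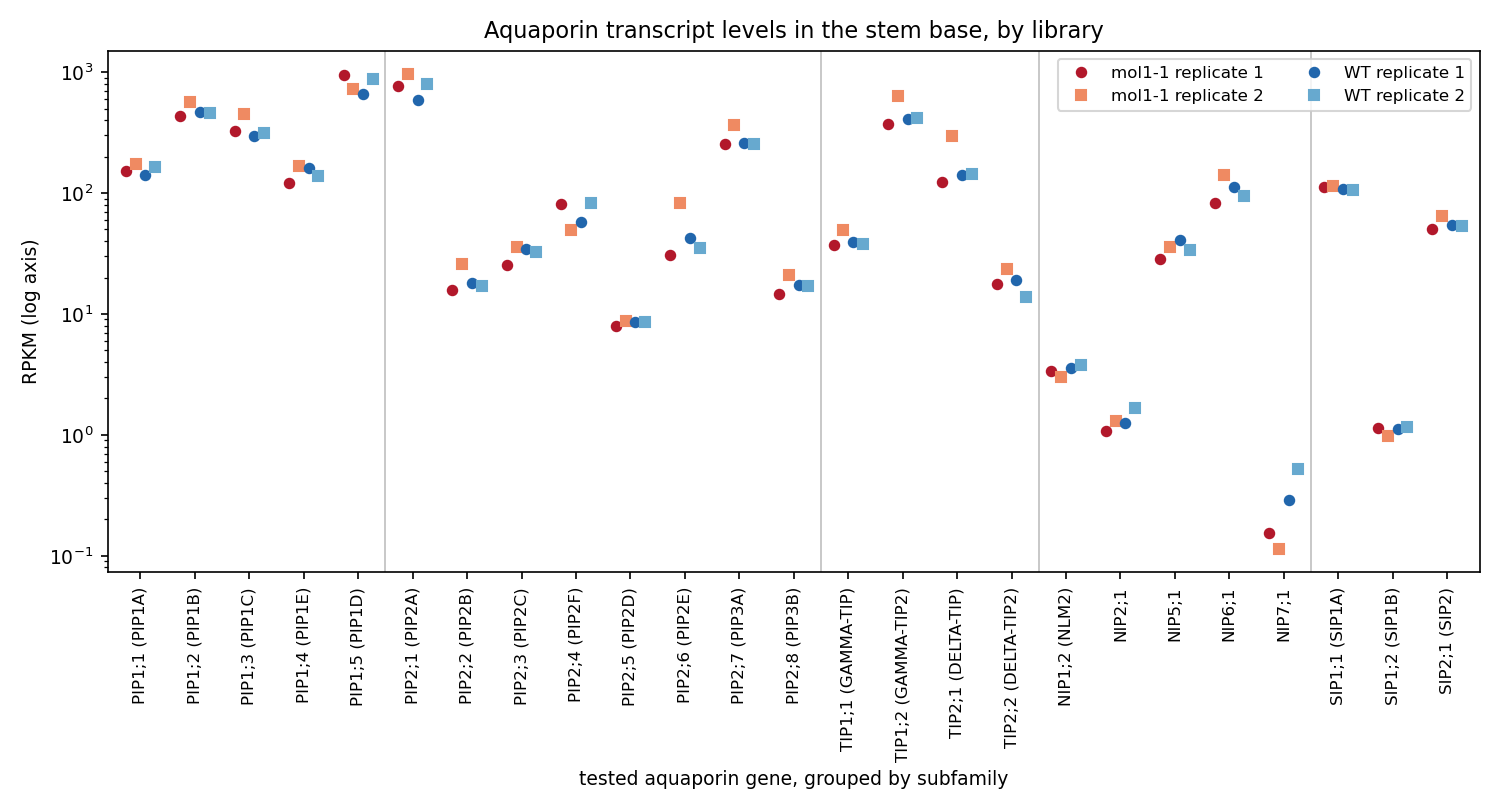
Deposited RPKM (log scale) of the 25 tested aquaporin genes, ordered by subfamily, with 1 point per library, mol1-1 left of WT. PIP1D and PIP2A lead at 589.8 to 957 RPKM, while the lowest gene lies under 1 RPKM in all 4 libraries.

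PIPs held most of the aquaporin message. PIP1 genes summed to 1975 and 2083 RPKM in mol1-1 and 1728 and 1959 RPKM in WT. PIP2 genes summed to 1199 and 1544 RPKM in mol1-1 and 1030.2 and 1242 RPKM in WT. Together the PIPs took 79.2% and 72.6% of the aquaporin RPKM in mol1-1 and 74.8% and 78.0% in WT. TIPs summed to 554 and 1009 RPKM in mol1-1 against 606 and 609 RPKM in WT, or 13.8% and 20.2% of the family in mol1-1 against 16.4% and 14.8% in WT. The WT libraries lay close together in TIP sum, and the mol1-1 libraries fell on either side of them. NIPs summed to 116 and 180.4 RPKM in mol1-1 and to 159 and 135 RPKM in WT, and SIPs to 163 and 179 RPKM in mol1-1 and to 163 and 161 RPKM in WT. With 2 libraries against 2, an exact two-sided permutation test cannot go below p = 0.333, so no test was made on these sums.

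**Figure D2:**
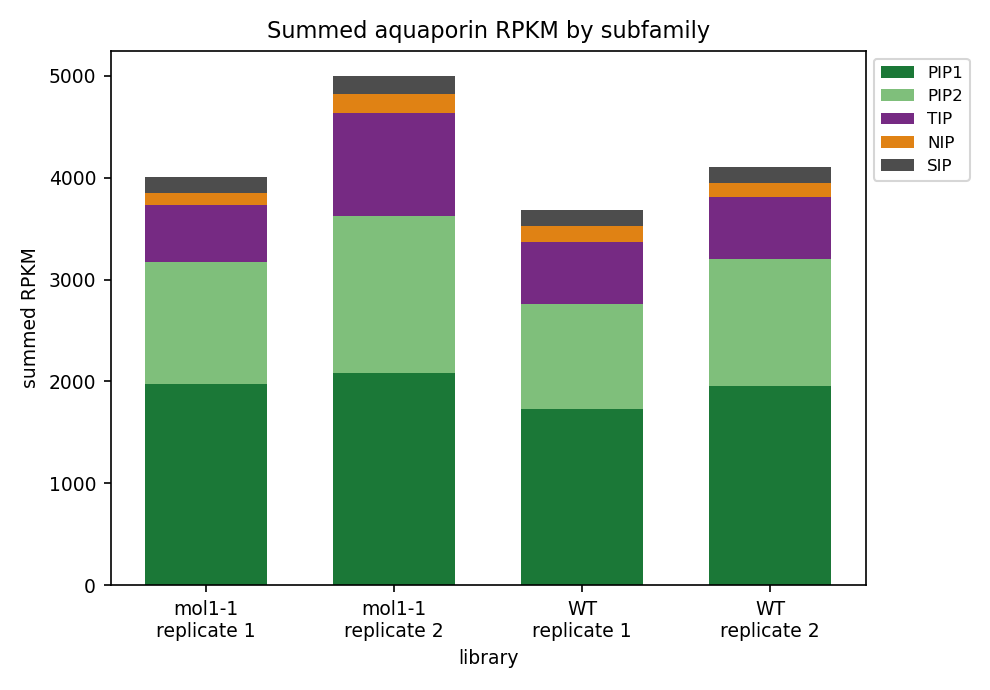
Summed deposited RPKM of the PIP1, PIP2, TIP, NIP and SIP genes, stacked in 1 bar per library, mol1-1 left of WT. The TIP sum spans 554 to 1009 RPKM between the mol1-1 libraries and 606 to 609 RPKM between the WT libraries.

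No aquaporin gene passed the test between mol1-1 and WT, against 0.200% of all tested genes. Of the 35 members, 25 passed the filter on low counts, namely 13 of 13 PIPs, 4 of 10 TIPs, 5 of 9 NIPs and 3 of 3 SIPs. None of these 25 had an adjusted p under 0.05 in edgeR's quasi-likelihood test, and none had an unadjusted p under 0.05, against 5.94% of all tested genes. No aquaporin was called by DESeq2, limma-voom or limma on log2(RPKM + 1), beside 1.29%, 0.173% and 0.269% of the genes each tested, and none had an unadjusted p under 0.05 there. The smallest adjusted p in the family was 0.841, for NIP7;1. The median log2 fold change of mol1-1 over WT was 0.12 over the 25 genes, beside -0.011 over all tested genes.

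The spread between replicates sets what this comparison could show. For the 25 tested aquaporins the median absolute log2 ratio between replicates was 0.37 in mol1-1 and 0.13 in WT, beside 0.22 in mol1-1 and 0.14 in WT for all tested genes. The log2 fold change was above 0 for 16 of 25 aquaporins, beside 47.8% of all tested genes. In CPM scaled with the trimmed mean of M values (TMM), both mol1-1 libraries lay above both WT libraries for 3 aquaporins (PIP1;3, PIP2;7 and SIP1A), beside 16.9% of all tested genes. They lay below both WT libraries for 1 aquaporin, the same NIP, beside 16.8%. Those counts make up 4 of 25 genes without overlap, beside 33.7% of all tested genes.

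**Figure D3:**
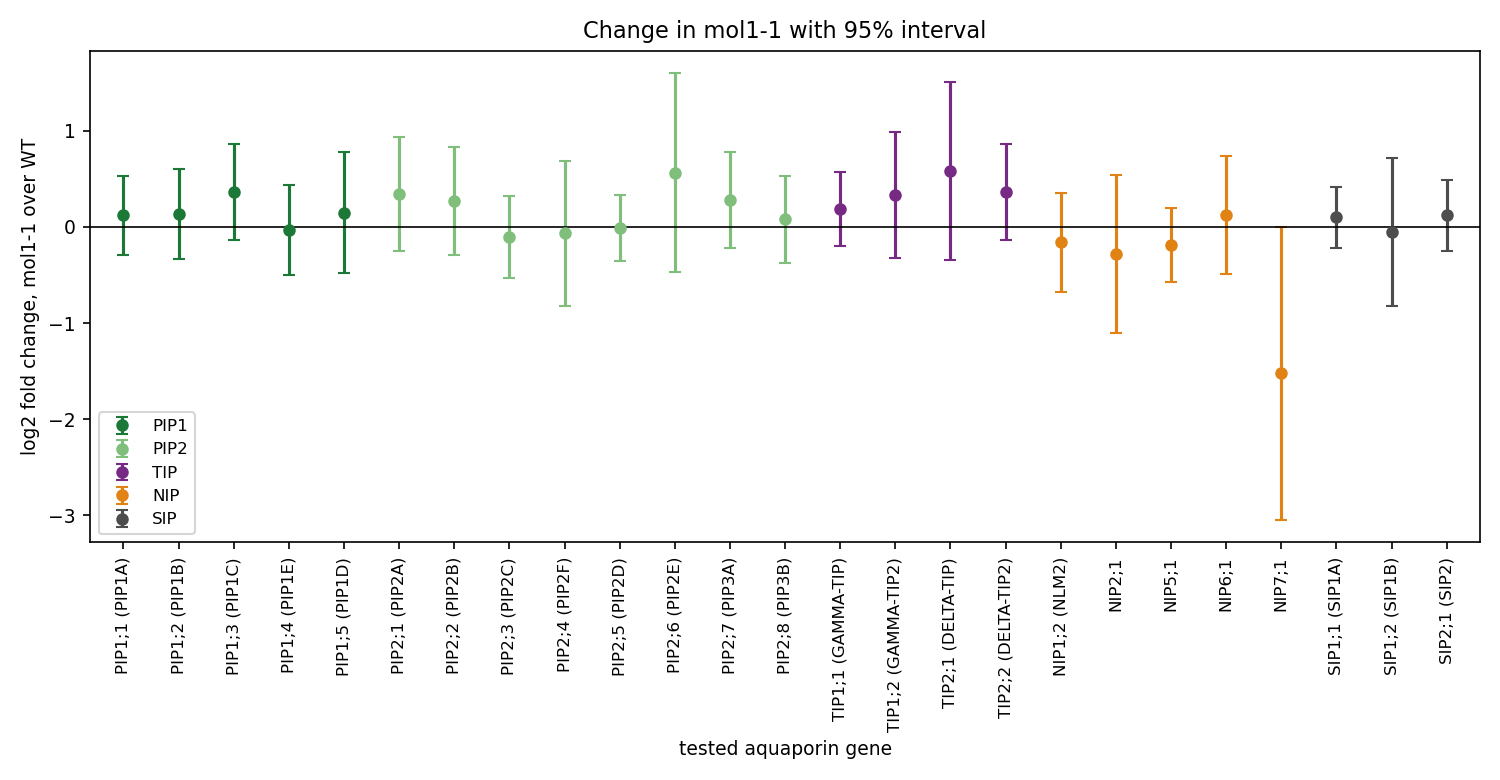
Log2 fold change of mol1-1 over WT with its 95% interval for the 25 tested aquaporins, from edgeR's quasi-likelihood fit over 19024 genes. All estimates except the lowest, -1.52, lie between -0.28 and 0.58, and no adjusted p is under 0.05.

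Among the PIP1 genes, PIP1D (AT4G23400) led. It stood at 942 and 731 RPKM in mol1-1 and at 660.0 and 882 RPKM in WT, with 1 high and 1 low library in each genotype and partial overlap. Its log2 fold change was 0.15 (SE 0.25, 95% interval -0.48 to 0.78, adjusted p = 0.997), and it was -0.088 without mol1-1 replicate 1 and -0.071 without WT replicate 1. PIP1;2 (AT2G45960, PIP1B), known for carbon dioxide as well as water permeability in leaves, stood at 436 and 563 RPKM in mol1-1 and 470.3 and 459 RPKM in WT. The WT values lay between those of the mol1-1 libraries, and the log2 fold change was 0.13 (SE 0.19, 95% interval -0.34 to 0.60, adjusted p = 0.997).

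PIP1;3 (AT1G01620, PIP1C, chr1:225665-227543, minus strand) was the PIP1 gene without overlap. It stood at 323 and 448 RPKM in mol1-1 and at 295 and 315 RPKM in WT, with the lower mol1-1 library just above the higher WT library. The log2 fold change was 0.36 (SE 0.20, 95% interval -0.14 to 0.87, adjusted p = 0.973). The remaining pair, PIP1;1 (AT3G61430, PIP1A) and PIP1;4 (AT4G00430, PIP1E), ran between 121 and 175 RPKM in all libraries, with log2 fold changes of 0.12 and -0.032. PIP1 proteins are known to reach the plasma membrane best when paired with PIP2 proteins.

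PIP2A (AT3G53420), a main water channel of the plasma membrane in roots, leaves and guard cells, stood at 769.6 and 957 RPKM in mol1-1 and 589.8 and 793 RPKM in WT. The lower mol1-1 library fell below the higher WT library. The log2 fold change was 0.34 (SE 0.24, 95% interval -0.25 to 0.94, adjusted p = 0.997). Leaving out WT replicate 1 gave 0.12, and leaving out WT replicate 2 gave 0.62. PIP2;7 (AT4G35100, PIP3A, chr4:16708361-16710407, plus strand), a water channel studied in salt stress, stood at 254 and 363 RPKM in mol1-1 and 262 and 255 RPKM in WT. In RPKM the groups overlapped, whereas in TMM-scaled CPM they did not, with 344.1 and 474 in mol1-1 and 335 and 337 in WT. The log2 fold change was 0.28 (SE 0.20, 95% interval -0.22 to 0.78, adjusted p = 0.997).

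PIP2;6 (AT2G39010, PIP2E, chr2:16291280-16294101, plus strand), known from the vein parenchyma of leaves, varied most between replicates. It stood at 30.7 and 82.6 RPKM in mol1-1 and at 42.6 and 34.97 RPKM in WT, so that the lowest and the highest of the 4 values were both from mol1-1. The log2 ratio of replicate 2 over replicate 1 was 1.36 in mol1-1 and -0.23 in WT. The difference between its mol1-1 replicates was larger than that of 99.3% of tested genes. Its log2 fold change was 0.57 (SE 0.42, 95% interval -0.47 to 1.60, adjusted p = 0.997).

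The other PIP2 genes were lower. PIP2;2 (AT2G37170, PIP2B), PIP2;3 (AT2G37180, PIP2C, also RD28, first known as a desiccation-responsive transcript), PIP2;4 (AT5G60660, PIP2F), PIP2;5 (AT3G54820, PIP2D) and PIP2;8 (AT2G16850, PIP3B) ranged between 8.01 and 83.5 RPKM. Their log2 fold changes lay between -0.10 and 0.27. Of these, PIP2D differed least between the mol1-1 replicates, at 8.01 and 8.72 RPKM in mol1-1 and 8.60 and 8.59 RPKM in WT, and its 95% interval ran from -0.35 to 0.33.

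Among the TIPs, GAMMA-TIP2 (AT3G26520), a vacuolar channel of vegetative tissues, stood at 376 and 641 RPKM in mol1-1 and 407 and 414 RPKM in WT. The WT libraries again lay between the mol1-1 libraries. For GAMMA-TIP2 the log2 fold change was 0.33 (SE 0.27, 95% interval -0.32 to 0.99, adjusted p = 0.997). TIP2;1 (AT3G16240, DELTA-TIP, chr3:5505360-5507050, plus strand), a vacuolar channel for water and ammonia, stood at 123 and 294 RPKM in mol1-1 and at 140.0 and 143 RPKM in WT. The log2 ratio of replicate 2 over replicate 1 was 1.20 in mol1-1, larger in size than in 98.8% of tested genes, and 0.082 in WT. Its log2 fold change was 0.58 (SE 0.38, 95% interval -0.34 to 1.51, adjusted p = 0.997).

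TIP2;2 (AT4G17340, DELTA-TIP2, chr4:9698940-9700472, plus strand), known mainly from roots, stood at 17.6 and 23.7 RPKM in mol1-1 and at 19.0 and 13.8 RPKM in WT. The groups overlapped, and the log2 fold change was 0.36 (SE 0.20, 95% interval -0.14 to 0.86, adjusted p = 0.973). TIP1;1 (AT2G36830, GAMMA-TIP), the close relative of GAMMA-TIP2, stood at 37.0 and 49.3 RPKM in mol1-1 and 39.5 and 38.0 RPKM in WT, with a log2 fold change of 0.18. All 4 tested TIPs had their highest TMM-scaled CPM in mol1-1 replicate 2, and their median log2 fold change was 0.35. That median was 0.58 without mol1-1 replicate 1 and -0.038 without mol1-1 replicate 2.

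The NIPs were led by the boric acid channels. NIP6;1 (AT1G80760), known for boron distribution at stem nodes, stood at 82.6 and 140.2 RPKM in mol1-1 and 113 and 95.1 RPKM in WT, with the WT libraries inside the mol1-1 range. The log2 fold change was 0.12 (SE 0.25, 95% interval -0.49 to 0.74, adjusted p = 0.997). NIP5;1 (AT4G10380), known for boric acid uptake by roots, stood at 28.6 and 35.8 RPKM in mol1-1 and 41.2 and 33.8 RPKM in WT, with a log2 fold change of -0.19. NIP1;2 (AT4G18910, NLM2) and NIP2;1 (AT2G34390), a lactic acid channel of low-oxygen roots, lay at 1.07 to 3.79 RPKM, with log2 fold changes of -0.16 and -0.28. The median over the 5 tested NIPs was -0.19.

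NIP7;1 (AT3G06100, chr3:1841168-1843196, minus strand), a boric acid channel known from anthers, had the smallest p of the family and very few reads. It was counted 7 and 4 times in mol1-1 and 11 and 18 times in WT, or 0.154 and 0.114 RPKM in mol1-1 and 0.292 and 0.524 RPKM in WT. The groups did not overlap. The log2 fold change was -1.52 (SE 0.62, 95% interval -3.05 to 0.0038, adjusted p = 0.841). The gene was not called, and its few reads limit the estimate. Floral marker genes summed to 0.287 and 0.161 RPKM in mol1-1 and 1.36 and 0.0857 RPKM in WT, and pollen markers to 3.16 and 3.53 RPKM in mol1-1 and 5.12 and 2.62 RPKM in WT. Their part in these values was not tested.

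The SIPs lay at 3 different levels. SIP1A (AT3G04090) stood at 112 and 114 RPKM in mol1-1 and 108 and 107 RPKM in WT, without overlap but close together. A log2 fold change of 0.10 was estimated (SE 0.13, 95% interval -0.22 to 0.42, adjusted p = 0.997). SIP2;1 (AT3G56950, SIP2) stood at 50.1 and 64.2 RPKM in mol1-1 and 54.0 and 53.1 RPKM in WT. SIP1;2 (AT5G18290, SIP1B) lay near 1 RPKM throughout, between 0.984 and 1.16 RPKM. The log2 fold changes of SIP2 and SIP1B were 0.12 and -0.056.

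Set in order of mean RPKM over the 4 libraries, PIP1D and PIP2A came first and overlapped each other in range. PIP2A and PIP1B, the next in order, did not overlap, with a lowest value of 589.8 RPKM for PIP2A and a highest of 563 RPKM for PIP1B. Further steps without overlap separated PIP1E from SIP1A, PIP3B from PIP2D, PIP2D from NLM2, NLM2 from NIP2;1, and SIP1B from NIP7;1. The remaining 18 of 24 neighbouring pairs among the 25 tested genes overlapped in their ranges over the 4 libraries. Overlap of ranges does not compare the genes within a library. Some of these pairs kept their order in every library, such as PIP1C above PIP3A and PIP3A above DELTA-TIP.

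The 10 members that did not pass the filter were 6 TIPs and 4 NIPs. NIP3;1 (AT1G31885), NIP4;1 (AT5G37810) and NIP4;2 (AT5G37820) had no read in any library. For the first of them, 3 reads over both libraries of a genotype would correspond to 0.0463 RPKM in mol1-1 and 0.0516 RPKM in WT, which is the limit this depth allows for counting error alone. The other 7 had between 1 and 23 reads over the 4 libraries. These were the pollen-linked TIP1;3 (AT4G01470) and TIP5;1 (AT3G47440), the seed-linked TIP3;1 (AT1G73190) and TIP3;2 (AT1G17810), and TIP2;3 (AT5G47450, DELTA-TIP3), NIP1;1 (AT4G19030, NLM1) and TIP4;1 (AT2G25810). The last of these had the most, with 5 and 8 reads in mol1-1 and 9 and 1 in WT. NLM1 had 0 and 0 reads in mol1-1 and 4 and 0 in WT, whereas DELTA-TIP3 had 0 and 5 reads in mol1-1 and 0 and 0 in WT.

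In the median, the aquaporins differed more between the mol1-1 libraries than between the WT libraries, as did all tested genes to a lesser degree. The NIPs went the other way, with a median absolute log2 ratio between replicates of 0.19 in mol1-1 and 0.23 in WT. For 16 of the 25 tested genes the highest TMM-scaled CPM was in mol1-1 replicate 2, beside 33.3% of all tested genes. These were 10 of 13 PIPs, 4 of 4 TIPs, 1 of 5 NIPs and 1 of 3 SIPs. PIP2E and DELTA-TIP were 2-fold or more apart between the mol1-1 replicates, which is 2 of 25 beside 2.32% of all tested genes. No aquaporin was that far apart in WT, beside 1.23% of all tested genes. The green tissue markers, 4 genes of photosynthesis, were also highest in mol1-1 replicate 2, with 3612 and 4967 RPKM in mol1-1 and 3769 and 3615 RPKM in WT, and none of the 4 passed the test. Their part in the aquaporin values was not tested.

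**Figure D4:**
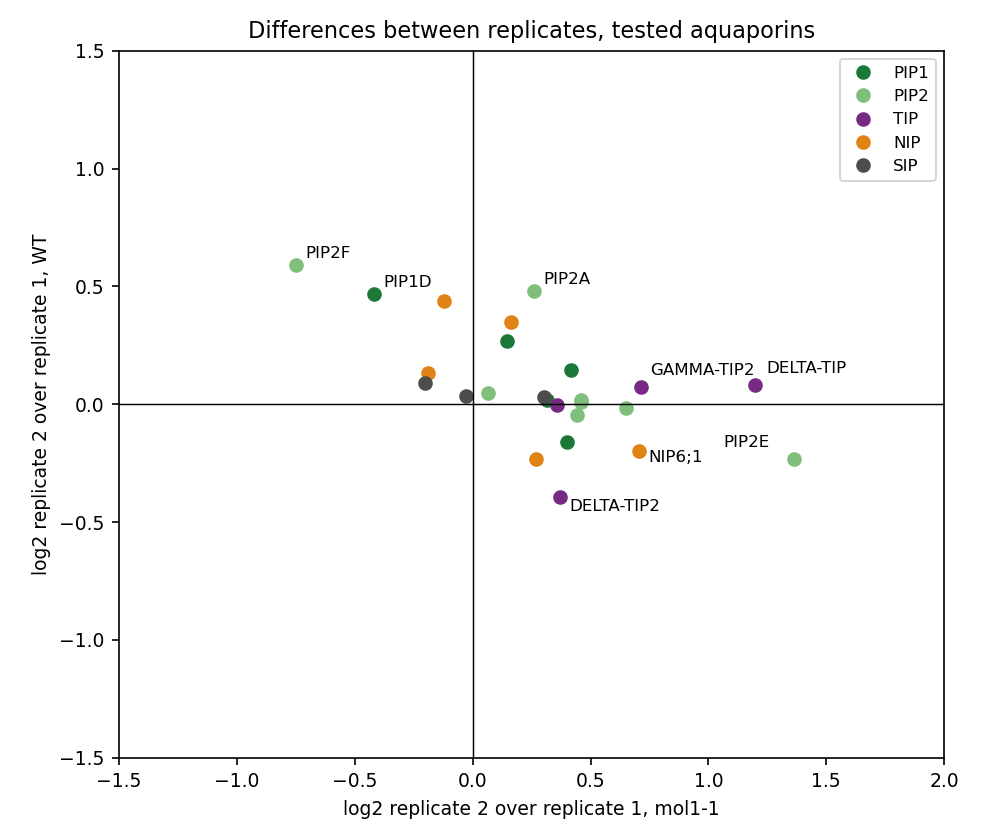
Log2 ratio of replicate 2 over replicate 1 in mol1-1 (x axis) and WT (y axis), in TMM-scaled CPM for the 25 tested aquaporins, 1 point per gene, coloured by subfamily. PIP2E and DELTA-TIP lie farthest right, at 1.36 and 1.20, while PIP2F and PIP1D lie to the left and above.

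The comparison was also made without each library in turn, and the fits without a mol1-1 library bear on these genes. Without replicate 1, PIP2E (log2 fold change 1.08, adjusted p = 0.0167) and DELTA-TIP (1.05, adjusted p = 0.0252) were called higher, beside 1.47% of all tested genes. Without replicate 2, the log2 fold changes of these genes were -0.28 and -0.14, with adjusted p of 0.892 and 0.970. No aquaporin was then called, beside 1.09% of all tested genes, and the median over the 25 aquaporins was -0.043. The log2 fold changes of GAMMA-TIP2, PIP1B and NIP6;1 were then also below 0, at -0.069, -0.033 and -0.27, and those of PIP1C, PIP3A and DELTA-TIP2 were 0.14, 0.034 and 0.16. Each of these fits leaves a lone mol1-1 library that is assumed to vary like the WT libraries. The direction for PIP2E and DELTA-TIP thus depended on which mol1-1 library was kept.

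A pair of PIPs, PIP1D and PIP2F, went the other way between replicates. PIP2F, a plasma membrane channel known mainly from roots and singled out after its values were seen, stood at 81.2 and 49.9 RPKM in mol1-1 and at 57.2 and 83.5 RPKM in WT. Both genes were thus high in mol1-1 replicate 1 and WT replicate 2 and low in the other two libraries. The log2 ratio of replicate 2 over replicate 1 was -0.42 in mol1-1 and 0.47 in WT for PIP1D, and -0.75 in mol1-1 and 0.59 in WT for PIP2F. Outside the PIPs, the signs were the same and the ratios smaller in NLM2, NIP7;1, SIP1A and SIP1B. Their ratios ran from -0.20 to -0.028 in mol1-1 and from 0.035 to 0.44 in WT. The 6 xylem markers, genes of secondary wall cellulose synthesis, lignification and xylem cell death, summed to 3980 and 2624 RPKM in mol1-1 and 2962 and 3999 RPKM in WT, with the same high and low libraries. The 4 phloem markers summed to 444 and 380.1 RPKM in mol1-1 and 406 and 463 RPKM in WT, with these high and low libraries. The sums of the epidermis and green tissue markers did not follow this order. Nor did every phloem marker taken singly. The phloem marker of lowest RPKM ran the other way between replicates in both genotypes. Another was slightly lower in mol1-1 replicate 1 than in WT replicate 1 in RPKM. None of the xylem or phloem markers passed the test between genotypes. Their part in the PIP1D and PIP2F values was not tested.

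Reads that map to more than 1 place bear on only a few members. Of the 25 tested aquaporins, 21 had at least 99% unique exon reads. PIP2B and PIP2C were the main exceptions, with 84.1% and 83.3% unique reads over the 4 libraries. They are neighbours in opposite directions at chr2:15613368-15615022 (PIP2B, minus strand) and chr2:15617635-15619155 (PIP2C, plus strand), with coding sequences of 858 bases each and 94.8% identity. Their longest identical run was 242 coding bases. The next closest pair of the family, the NIP4 genes, shared 88.2%. The stretch in which the pair differs most, coding bases 415 to 534 counted from the first base of the start codon, is shown to let the copies be compared, with the 16 differing bases in capitals.
PIP2B: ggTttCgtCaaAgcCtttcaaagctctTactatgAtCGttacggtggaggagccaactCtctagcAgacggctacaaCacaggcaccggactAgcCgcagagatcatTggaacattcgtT
PIP2C: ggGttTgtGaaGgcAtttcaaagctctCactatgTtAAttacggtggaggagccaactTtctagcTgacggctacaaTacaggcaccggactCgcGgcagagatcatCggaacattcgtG
In unique exon reads alone, PIP2B had 550 and 747 in mol1-1 and 548 and 469 in WT, and PIP2C had 915 and 1011 in mol1-1 and 1026 and 883 in WT. In total exon reads PIP2B had 681 and 864 in mol1-1 and 647 and 561 in WT, and PIP2C had 1098 and 1198 in mol1-1 and 1247 and 1061 in WT. In both classes, as raw counts not scaled to depth, PIP2B was highest in mol1-1 replicate 2 and PIP2C in WT replicate 1. Scaled to RPKM, both genes were highest in mol1-1 replicate 2, at 26.0 for PIP2B and 36.0 for PIP2C. In WT replicate 1, PIP2C stood at 34.7 RPKM. The sources do not state how shared reads were counted, and the split between the pair is uncertain.

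**Figure D5:**
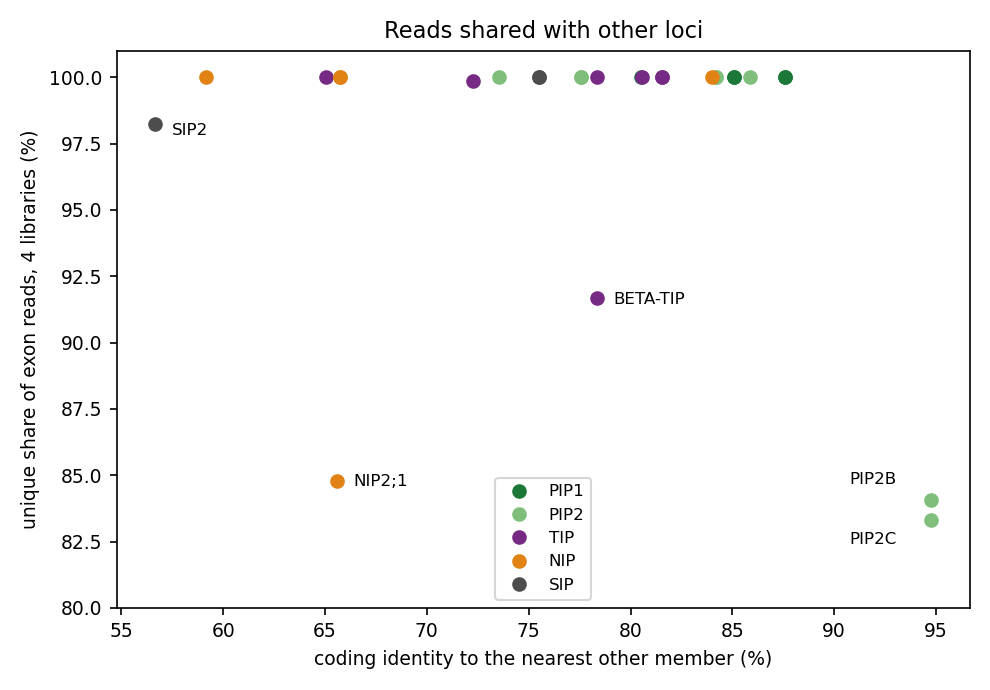
Unique share of exon reads (percent) over the 4 libraries for each aquaporin with 10 or more exon reads, set against the coding identity (percent) to its closest relative in the family. PIP2B and PIP2C combine 94.8% identity with the lowest unique shares, and NIP2;1 is low without a close relative among the members.

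NIP2;1 had 84.8% unique reads although no other member is close to it. A partial copy lies at AT2G29870 on the same chromosome, with 98.1% identity over 210 bases in its best matching block. Within that block, the locus and its copy share a stretch of 105 bases without a difference (coding bases 484 to 588 of NIP2;1, and chr2:12741228-12741332 on the plus strand in the copy). It is given in lower case because all its bases are identical.
NIP2;1: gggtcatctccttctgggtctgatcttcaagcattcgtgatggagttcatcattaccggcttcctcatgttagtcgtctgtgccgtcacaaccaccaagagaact
The copy was counted at 1 and 0 exon reads in mol1-1 and 0 and 0 in WT. NIP2;1 had 45 and 42 exon reads in mol1-1 and 44 and 53 in WT, so its unique share rests on small counts.

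The tables also give reads in introns and across exon junctions. Intron reads made up a median 0.150% of gene reads in mol1-1 and 0.217% in WT over the 25 tested aquaporins, beside 0.244% in mol1-1 and 0.266% in WT over all tested genes. NIP2;1 and SIP1B, both near 1 RPKM, stood apart. NIP2;1 had 11 and 10 intron reads in mol1-1 and 13 and 9 in WT, or 21.3% of its gene reads. SIP1B had 12 and 2 intron reads in mol1-1 and 3 and 5 in WT, or 5.93% of its gene reads. Reads across exon junctions made up a median 10.6% of exon reads in mol1-1 and 10.4% in WT for the aquaporins, beside 12.9% in mol1-1 and 13.4% in WT for all tested genes. The genotypes thus lay close together in the junction medians of the aquaporins, while their intron median was lower in mol1-1 than in WT. The spread of these medians between libraries was not assessed.

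Genes that work with aquaporins were read from the same fit. Of 12 genes for aquaporin trafficking and regulation (among them syntaxins, ubiquitin ligases and kinases), 11 were tested and none passed in either direction, with a median log2 fold change of 0.12. Of 7 proton pump genes, which energise the membranes that hold PIPs and TIPs, all were tested and none passed, with a median of -0.12. Of 3 boron exporters, which work beside the boric acid channels of the NIPs, 2 were tested and none passed, with a median of -0.18. Of 10 water deficit genes, 9 were tested and none passed, with a median of -0.058. At an unadjusted p under 0.05 stood 3 of the 11 trafficking and regulation genes, none of the proton pumps and boron exporters, and 5 of the 9 water deficit genes, beside 5.94% of all tested genes. The trafficking and regulation genes ranged from -0.16 to 1.25 in log2 fold change, with a smallest adjusted p of 0.216. The water deficit genes lay on both sides of 0, from -0.85 to 1.86, with a smallest adjusted p of 0.155.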

How the data were processed

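Polyadenylated RNA of the stem base was sequenced from 2 mol1-1 and 2 WT libraries. Per the labels, samples fall into these groups by genotype. The deposited tables hold raw counts of reads per locus (gene, exon, junction and intron reads, unique and total) and, per the file headers, RPKM, median coverage and exon length. Recomputed from the tables, the deposited RPKM equals total exon reads divided by the exon length in kilobases and by the gene reads of the library, times a constant (largest relative difference 2.15e-14). The median coverage that the authors deposited was not used. The genome build was TAIR10, per the submitters' processing notes. No source used here names the aligner, the counter, the use of strand or the treatment of multiply mapped reads. The 5 rows without a locus name (0.0586% to 0.0864% of exon reads) were left out.

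The deposited counts of total exon reads entered edgeR 4.0.16 (R 4.3.3) with filterByExpr, TMM scaling, the quasi-likelihood test without covariates, two-sided, Benjamini-Hochberg adjustment over all 19024 genes tested and a threshold of 0.05. The common biological coefficient of variation was 16.5%. The scripts were tested on simulated data. Alternatives were DESeq2 1.42.0, limma 3.58.1 (voom, and log2(RPKM + 1) or log2(RPKM + 0.1) with a mean RPKM of at least 1), other scalings and filters, unique exon or gene reads, a replicate block, and leaving out each library. Same-numbered libraries deviated from their group means with a correlation of -0.278 (log2 of TMM-scaled CPM + 0.5), so the numbers were not taken to pair them. These are the labels' numbers, 1 and 2. The mutant tables carry 2 and 3 inside, which would set mol1-1 replicate 1 beside WT replicate 2, and a block with that crossing was added. The 2 libraries of a group mirror each other around their mean. The crossed numbers therefore give a correlation of the same size and opposite sign. Depths of 28017346 to 37059413 exon reads limit the lowest genes. Limits from a count of 0 use 3 reads and cover counting error only.

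The members and gene lists were chosen with earlier results of these data known. Full values are given for members past the threshold, the 8 with the smallest p, the 2 of highest mean RPKM in PIP1, PIP2 and TIP (1 in NIP and SIP), and those 2-fold or more apart between replicates at 1 CPM or more. Genes outside the family are named only where they pass the test, plus MOL1 and markers without reads. Aquaporin sequences, coordinates and alternative names come from RefSeq's TAIR10.1, in which all 35 loci were found.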

Additional observations from a re-analysis of the deposited data

How the results depend on the processing

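The count of 0 aquaporins held in 16 of 17 alternative fits, the exception being the one without mol1-1 replicate 1 (2 called, PIP2E and DELTA-TIP), so that leaving out 1 library gave 0 to 2. The median log2 fold change of the family ran from -0.043 (without mol1-1 replicate 2) to 0.26 (without mol1-1 replicate 1). Over all genes, 38 were called, against 281 with DESeq2, 141 without a filter, and 37 to 409 when 1 library was left out (409 without mol1-1 replicate 1, 212 without mol1-1 replicate 2, 89 without WT replicate 2). With the replicate number as a replicate block, 136 genes and 0 aquaporins were called, with a family median of 0.11. With the numbers crossed, an alternative chosen after seeing the data, 248 genes and 0 aquaporins were called. Of 201 alternative fits of the 12 named genes, 192 kept direction and call, 2 passed the threshold and 7 had the opposite sign. Leaving out 1 library, the log2 fold change ran from -0.088 (without mol1-1 replicate 1, and -0.071 without WT replicate 1) to 0.42 for PIP1D. With the lower end without mol1-1 replicate 2 and the upper without mol1-1 replicate 1, it ran from -0.14 to 1.05 for DELTA-TIP, -0.28 to 1.08 for PIP2E, -0.069 to 0.64 for GAMMA-TIP2, -0.033 to 0.27 for PIP1B and -0.27 to 0.43 for NIP6;1, and, with no change of sign, from 0.034 to 0.48 for PIP3A and 0.14 to 0.55 for PIP1C. Without WT replicate 1 it was 0.12 for PIP2A and 0.57 for DELTA-TIP2, without WT replicate 2 it was 0.62 for PIP2A and 0.19 for DELTA-TIP2, and without mol1-1 replicate 2 it was 0.16 for DELTA-TIP2. For NIP7;1 it ran from -1.92 (without WT replicate 1) to -1.01 (without WT replicate 2). The TIP sum in WT averaged 611 RPKM with TMM-scaled library sizes, against 607 RPKM as deposited. The cause of these shifts was not tested. An unadjusted p under 0.05 was reached by 9 aquaporins without mol1-1 replicate 1, by PIP2C without mol1-1 replicate 2, by NIP7;1 and DELTA-TIP2 with the numbers crossed, and by NIP7;1 with upper-quartile scaling, no scaling, unique exon reads or total gene reads. The 40 reads of NIP7;1 over the 4 libraries limit it.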
